A study of Mus musculus with 6 samples.

Results

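The PRDM family is described here by 9 genes, Prdm15 and its relatives Prdm1, Prdm2, Prdm4, Prdm6, Prdm10, Prdm14, Prdm16 and Mecom, chosen by symbol from the 24062 genes of the deposited expression table. RNA came from dissected mouse embryo heads of strain C57BL/6 at embryonic day 8.5, was selected for polyA tails and was sequenced as stranded paired-end libraries. Mutant (MUT) embryos carried 2 copies of the Prdm15 tm1a allele, heterozygous (HET) embryos 1 copy and wild-type (WT) embryos 0, with 2 libraries for each genotype. No other allele or treatment is given for any group. tm1a is a knockout-first allele, in which a gene-trap cassette is inserted into the gene in every cell rather than in a chosen cell type. The labels name 2 heads a genotype and neither litter nor batch, so a p-value here reflects only how far these libraries spread, which may be technical.

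PRDM proteins carry a PR domain, which is related to the SET domain of histone methyltransferases, and most of them also carry a series of zinc fingers that bind DNA. Some members modify histones themselves, while others act by recruiting methyltransferases, deacetylases or other corepressors. In the early mouse embryo the family is known for roles in germ cell founding, pluripotency, blood and vessel formation, and the development of head and nervous system.

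Reads assigned to genes numbered 29412227 to 40439234 a library. The count files attached to WT replicate 2 and MUT replicate 1 bear each other's titles. The RPKM columns (reads scaled by gene length and by library size) have the zeros of the files as titled, with 0 genes of other status, whereas 1646 genes differ when these 2 files are taken as attached. Counts are therefore used by title here, and the result with the files as attached is given where it differs. No member of the 12-gene forebrain list or the 12-gene neural progenitor list was at 0 in any group, meaning 0 reads in both libraries of a genotype. Very few reads are enough for that. The forebrain gene Rax was at 0.745 and 0.102 CPM (counts scaled to library size) in MUT heads and 15.2 and 11.3 CPM in WT heads.

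RefSeq start windows (GRCm38.p6, 250 bases before to 50 after a start) were present for 6 of the 9 members, Prdm15, Prdm1, Prdm4, Prdm10, Prdm16 and Mecom, with more than 1 start for some. The first sequence shown is that of the targeted gene at its most upstream RefSeq start, and the other 2 belong to the paralogs Prdm16 and Mecom, which share the longest run of identical bases between windows of different members. In Prdm15 (chr16:97851801-97852100, minus strand) the capitals mark GGGCGG on either strand; in the paralogs they mark the shared run.
Prdm15: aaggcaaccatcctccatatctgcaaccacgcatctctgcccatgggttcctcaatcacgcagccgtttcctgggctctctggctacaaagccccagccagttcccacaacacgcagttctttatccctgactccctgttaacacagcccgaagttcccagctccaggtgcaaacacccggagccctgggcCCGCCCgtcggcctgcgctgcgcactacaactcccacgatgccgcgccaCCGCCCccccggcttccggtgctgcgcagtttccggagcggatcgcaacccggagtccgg
Prdm16: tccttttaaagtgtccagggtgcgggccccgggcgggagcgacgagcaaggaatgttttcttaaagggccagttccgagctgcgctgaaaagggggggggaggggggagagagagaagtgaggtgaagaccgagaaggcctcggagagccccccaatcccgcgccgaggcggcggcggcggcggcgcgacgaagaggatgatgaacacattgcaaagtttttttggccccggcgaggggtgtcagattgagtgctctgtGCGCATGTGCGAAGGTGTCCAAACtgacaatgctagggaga
Mecom: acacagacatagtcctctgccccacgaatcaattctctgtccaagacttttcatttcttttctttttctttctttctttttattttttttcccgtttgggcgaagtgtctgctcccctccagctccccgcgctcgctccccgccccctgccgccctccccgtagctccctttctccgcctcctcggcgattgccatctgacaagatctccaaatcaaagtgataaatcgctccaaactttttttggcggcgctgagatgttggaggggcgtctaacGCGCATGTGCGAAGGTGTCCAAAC
The window of Prdm16 lies at chr4:154636824-154637123 and that of Mecom at chr3:30509710-30510009, both on the minus strand. The shared run has 24 bases, at positions 260 to 283 of the Prdm16 window and 277 to 300 of the Mecom window, where it ends with the window. It was in 2 of the 32851 windows listed by RefSeq, those of Prdm16 and Mecom. Over the 41 pairs of windows from different members, the next longest shared run had 10 bases. The Prdm15 window had a GC content of 63.7% and 23 CpG dinucleotides, against medians of 52.7% and 7 over all windows. Read on both strands, it held the GC box GGGCGG 2 times, and 35.7% of all windows hold that box at least once. The CCAAT box occurred 0 times, against 37.4% of all windows with at least 1, and the TATA box, spelt TATAAA, 0 times, against 13.6%. The OTX-type homeodomain motif TAATCC was in none of the 10 windows of these 6 genes and is in 7.06% of all windows. Outer C or G bases of these motifs can be shared with a GC box. A missing match says only that these letters are not in the window.

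Prdm15 (chromosome 16, 97791467 to 97851850, minus strand, GRCm38) encodes a zinc finger factor that controls signalling genes in mouse embryonic stem cells. It was read at 4.16 and 5.04 RPKM in MUT heads, 4.47 and 5.01 RPKM in HET heads and 5.56 and 5.14 RPKM in WT heads. Both MUT and both HET libraries lay below both WT libraries, but no comparison passed the test. A scale set by neural progenitor genes shifts the median over all genes by 0.97 in MUT against WT and 0.66 in MUT against HET. On it Prdm15 was at 0.77 (adjusted p = 0.001) and 0.62 (adjusted p = 0.0084), below both medians. Both values passed there, as did 12316 and 10342 of the 15187 genes tested. With the usual scaling the log2 fold change was -0.21 (SE 0.12, 95% interval -0.50 to 0.08, adjusted p = 0.221) in MUT against WT, which places the MUT level between 70.7% and 106% of WT. It was -0.36 without MUT replicate 2 and -0.07 without MUT replicate 1, and passed in neither fit (adjusted p = 0.108 and 0.719). In HET against WT it was -0.17 (SE 0.12, 95% interval -0.46 to 0.12, adjusted p = 0.422), and in MUT against HET -0.04 (SE 0.12, adjusted p = 0.876). Unless another tool is named, adjusted p-values of genes are from the quasi-likelihood test of edgeR, adjusted by Benjamini-Hochberg over 15187 genes. Counts over the whole gene do not separate normal transcripts from those that run into the cassette, so they do not check the genotype labels. Rspo1 and Spry1, which Prdm15 is known to regulate in mouse embryonic stem cells, both fell in MUT heads. In MUT against WT 13.6% of all genes tested passed as lower and 17.1% as higher. Spry1, a feedback inhibitor of growth factor signalling, was at 12.9 and 12.4 CPM (counts scaled to library size) in MUT, 27.6 and 35.2 CPM in HET and 47.9 and 40.2 CPM in WT heads, a log2 fold change of -1.80 (SE 0.15, adjusted p = 0.00122) in MUT against WT. Rspo1, a secreted Wnt enhancer, was at 0.798 and 1.23 CPM in MUT, 9.82 and 4.66 CPM in HET and 5.18 and 5.6 CPM in WT heads (-2.42, SE 0.42, adjusted p = 0.011). In HET against WT neither passed. In MUT against HET Spry1 did (-1.31, SE 0.15, adjusted p = 0.0434), where 0.362% of all genes passed as lower. Otx2, the forebrain and midbrain homeobox gene, was at 42.5 and 24.9 CPM in MUT, 75.4 and 71.9 CPM in HET and 109 and 86.1 CPM in WT heads, and fell in MUT against WT (-1.53, SE 0.25, adjusted p = 0.00964). The Otx2 call ended on the neural progenitor scale (-0.51, adjusted p = 0.101). Spry1 and Rspo1 are not given on that scale here. With the files as attached Otx2 was at -0.45. No gene passed in any comparison with those files, so the calls of Spry1, Rspo1 and Otx2 all ended there.

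**Figure D1:**
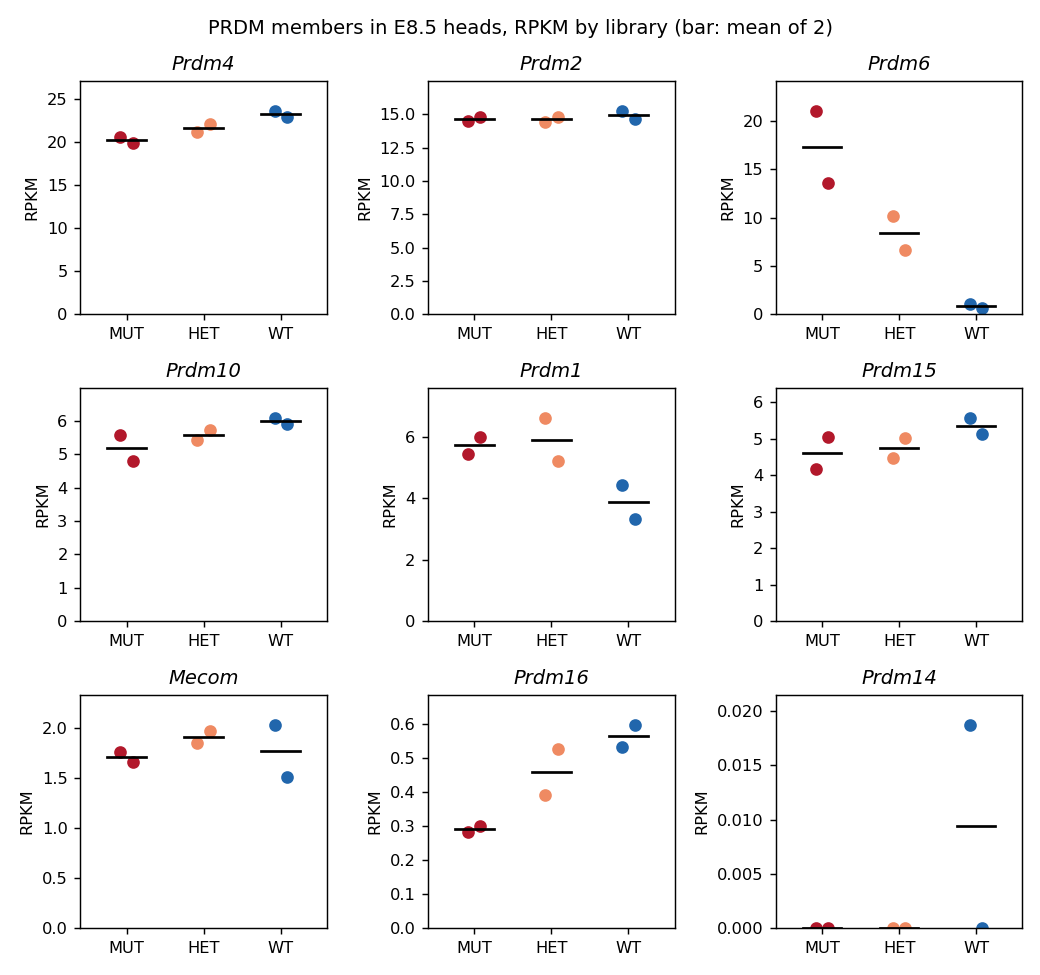
RPKM of the 9 PRDM members in each library, with MUT, HET and WT heads from left to right and a bar at the mean of 2 libraries; each panel has its own scale. Prdm6 stands at 13.6 and 21 RPKM in MUT heads and below 1.2 RPKM in WT heads, while Prdm2 stays between 14.4 and 15.2 RPKM in all 6 libraries.

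Among the relatives, Prdm6 was higher in MUT and HET heads than in WT, and Prdm4 and Prdm16 were lower in MUT heads. On a scale set by neural progenitor genes Prdm4 was at 0.80 and Prdm16 at 0.05 in MUT against WT. The median over all genes was 0.97 on that scale. With the files as attached Prdm16 was at 0.14. Of the 9 members 8 passed the filter on low counts, all but Prdm14. In MUT against WT 3 of these 8 passed the test, where 30.6% of all genes tested passed, so the count is near the background. The median log2 fold change was -0.12 over the 8 members and -0.02 over all genes tested. Of these 3 members 1 rose, where 17.1% of all genes passed as higher, and 2 fell, where 13.6% passed as lower. An unadjusted p under 0.05 was reached by 4 of 8 members and 43.8% of all genes. Libraries of MUT and WT did not overlap for 6 of the 8, where 71% of all genes did not overlap, with 2 members higher (34.9% of all genes) and 4 lower (36.1%). In HET against WT 1 of 8 passed, Prdm6, which was higher, where 6.56% of all genes passed and 6.03% as higher. Libraries of HET and WT did not overlap for 6 of 8, against 56.2% of all genes. In MUT against HET edgeR's quasi-likelihood test with the usual scaling passed 0 of 8. There 0.435% of all genes passed, 0.0724% as higher and 0.362% as lower. An unadjusted p under 0.05 was reached by 2 of 8, Prdm6 and Prdm16, against 21.3% of all genes. DESeq2 passed 1, Prdm6, and limma-voom and the likelihood ratio test passed 0. Libraries of MUT and HET did not overlap for 4 of 8, against 54% of all genes, with Prdm6 higher (27.6% of all genes) and Prdm4, Prdm16 and Mecom lower (26.4%). The 3 comparisons share libraries in pairs, so their values are given side by side and are not independent.

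**Figure D2:**
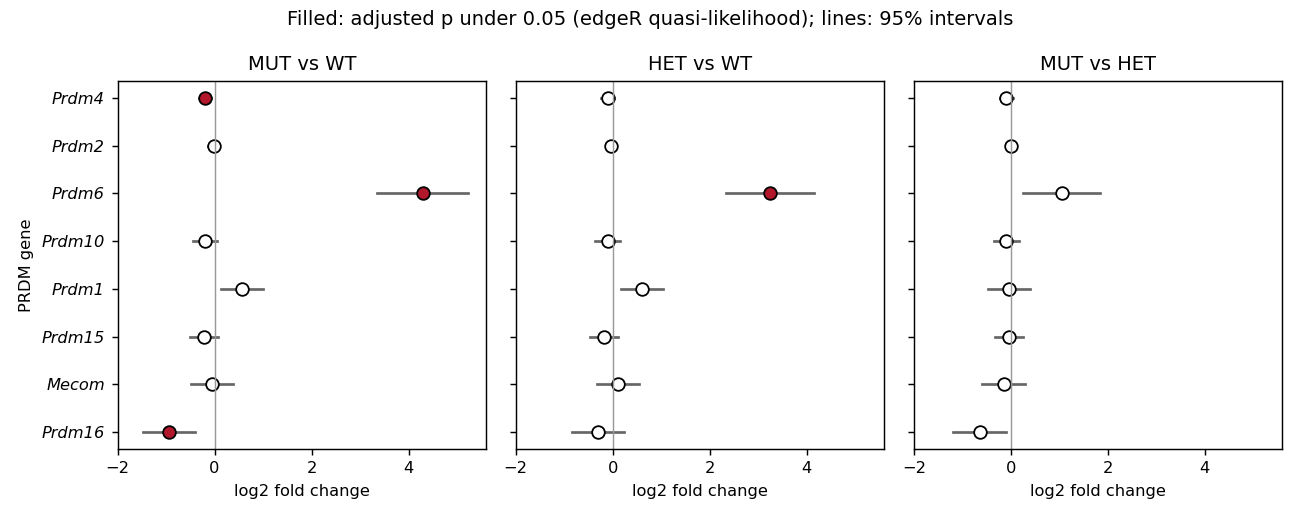
Log2 fold change (horizontal axis) of the 8 PRDM members tested, in rows from high to low mean RPKM, for MUT against WT, HET against WT and MUT against HET; lines are 95% intervals and filled points passed at an adjusted p under 0.05. Prdm6 lies at 4.29 and 3.24 in the first 2 panels, and the other filled points are Prdm4 at -0.19 and Prdm16 at -0.94 in MUT against WT. These 2 are at 0.80 and 0.05 when scaled to neural progenitor genes, where the median over all genes is 0.97.

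Prdm6 (chromosome 18, 53463583 to 53575907, plus strand) encodes a repressor known from smooth muscle and vascular precursors. It was read at 21 and 13.6 RPKM in MUT heads, 10.2 and 6.62 RPKM in HET heads and 1.1 and 0.657 RPKM in WT heads, from 2064 and 1038, 819 and 514, and 118 and 60 reads. The libraries of the 3 genotypes did not overlap, with HET between MUT and WT. The mean was 17.3 ± 5.23 RPKM in MUT, 8.39 ± 2.51 in HET and 0.879 ± 0.314 in WT heads (SD, n = 2 each). Prdm6 rose 19.6-fold in MUT against WT (log2 fold change 4.29, SE 0.38, adjusted p = 0.00149) and 9.48-fold in HET against WT (3.24, SE 0.37, adjusted p = 0.00852). The difference between MUT and HET, 1.05 on the log2 scale (SE 0.32, 95% interval 0.26 to 1.84), did not pass (adjusted p = 0.154). DESeq2 gave it an adjusted p of 0.0175. On the neural progenitor scale this difference was 1.71 (adjusted p = 0.00571), where the median over all genes was 0.66. On leaving out single libraries the MUT against WT value stayed between 3.95 and 4.74 and passed each time. With the 2 files as attached it was -0.64 (adjusted p = 1) and no member passed. In the authors' deposited table the log2 fold change is 4.29 with a false discovery rate of 4.19e-38.

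Among all genes of the table the RPKM of Prdm6 lay at percentiles 83.6 and 77.7 in MUT, 73.5 and 67.2 in HET and 51.9 and 47.8 in WT heads. Of the summed RPKM of the 9 members it made up 28.6% and 20.5% in MUT, 15.7% and 10.7% in HET and 1.88% and 1.2% in WT heads. Without Prdm6 the family summed to 52.3 and 52.5 RPKM in MUT, 54.4 and 55.3 RPKM in HET and 57.5 and 54.2 RPKM in WT heads. Both MUT libraries lay below both WT libraries in this remainder, as they did for 36.1% of single genes tested, while HET overlapped WT. Much of the difference was Prdm4, at a mean of 20.2 RPKM in MUT and 23.3 RPKM in WT heads. Prdm1 went the other way, at 5.71 RPKM in MUT and 3.87 RPKM in WT heads.

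Marker genes of several tissues outside the neural plate were higher in MUT and HET heads than in WT heads, as Prdm6 was. Over all genes tested, 17.1% passed as higher and 13.6% as lower in MUT against WT, and 6.03% passed as higher in HET against WT. All 16 visceral endoderm genes, of the layer that becomes yolk sac epithelium, rose in MUT against WT and in HET against WT, with summed levels of 6007 and 5095 CPM in MUT, 3403 and 2513 CPM in HET and 152 and 151 CPM in WT heads. Spp2 was the only one of them at 0 in a genotype, WT. Of 12 heart genes 11 rose in MUT and 9 in HET, with sums of 2095 and 1229 CPM in MUT, 1779 and 2773 CPM in HET and 245 and 126 CPM in WT heads. Of 7 smooth muscle genes 5 rose in MUT and 4 in HET, at 677 and 400.4 CPM in MUT, 519.9 and 703 CPM in HET and 179 and 209.7 CPM in WT heads; Myocd, the coactivator that drives smooth muscle genes, rose by 2.99 (SE 0.54) in MUT. No heart or smooth muscle marker was at 0 in any genotype. The heart and smooth muscle sums overlapped between MUT and HET heads. Among the MUT and HET libraries, HET replicate 2 had the highest of both sums and the lowest Prdm6 (6.62 RPKM). The visceral endoderm sum and Prdm6 were higher in both MUT libraries than in both HET libraries, as were 27.6% of all genes tested. Prdm6 did not pass in that comparison with the usual scaling (adjusted p = 0.154). Of 14 trunk genes 12 were tested and 7 rose and 1 fell in MUT, while 1 rose and 0 fell in HET. The list summed to 101 and 285 CPM in MUT, 57.6 and 69.8 CPM in HET and 42.8 and 9.38 CPM in WT heads. Msgn1 and Hoxa7 were at 0 in HET. Of 11 endothelial genes 1 rose and 0 fell, both in MUT and in HET. They summed to 398 and 368 CPM in MUT, 326 and 368 CPM in HET and 263 and 379.9 CPM in WT heads. The part of these tissues in the Prdm6 result was not tested, and in whole heads more cells of a type and more RNA per cell cannot be told apart.

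**Figure D3:**
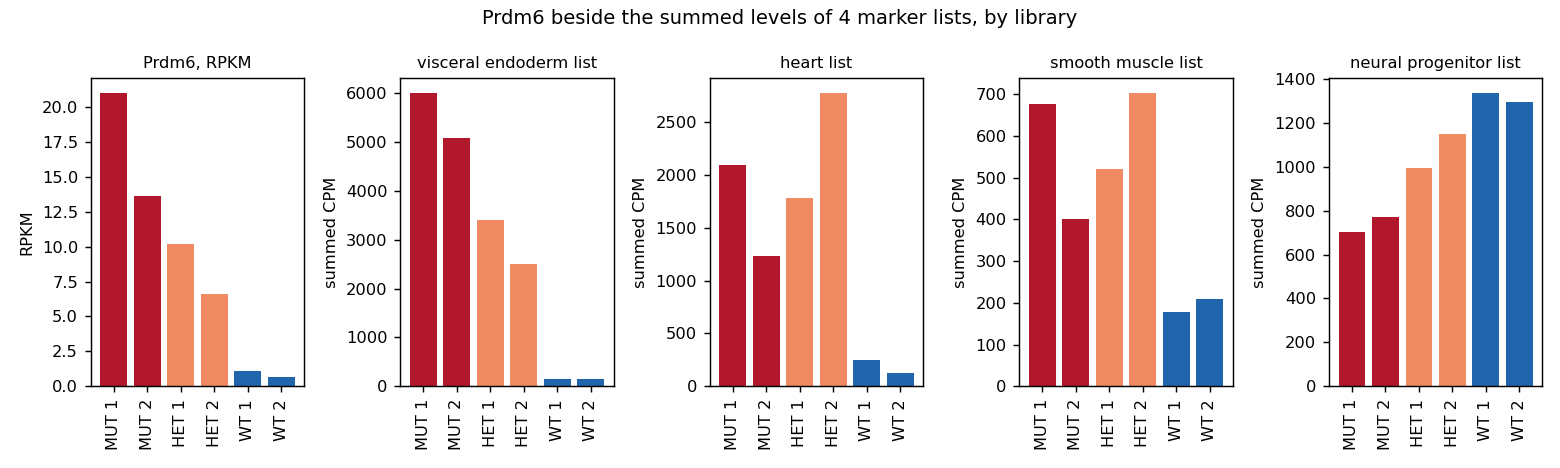
Prdm6 in RPKM (left) and the summed CPM of 4 marker lists, visceral endoderm, heart, smooth muscle and neural progenitor, 1 bar per library with MUT, HET and WT libraries from left to right. The visceral endoderm sums are 6007 and 5095 CPM in MUT, 3403 and 2513 CPM in HET and 152 and 151 CPM in WT heads, and the neural progenitor sums are 701 and 771 CPM in MUT, 995 and 1148 CPM in HET and 1336 and 1296 CPM in WT heads.

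Profiles were compared by the root mean square difference of log2 CPM, centred over the 6 libraries. The genes most like Prdm6 among 12635 were Reep6 (0.198), Tfec (0.217) and Sigirr (0.225), with 0 genes within 0.1. Reep6 was at 76.8 and 56.6 RPKM in MUT, 39.6 and 31.2 RPKM in HET and 3.54 and 3.12 RPKM in WT heads. For Prdm15 the nearest were Alkbh1 (0.0275), Clcc1 (0.0348) and Luc7l (0.0399), with 754 genes within 0.1. For Prdm4 they were Wdr48 (0.015), Tacc2 (0.0205) and Ehmt1 (0.0208), a histone methyltransferase, with 3144 genes within 0.1. For Prdm16 they were Jag1 (0.0699), Ebf3 (0.0711) and Slc48a1 (0.0721), with 29 genes within 0.1.

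Prdm16 (chromosome 4, 154316125 to 154636873, minus strand) acts in craniofacial tissue, neural stem cells and brown fat, and its paralog Mecom (chromosome 3, 29951296 to 30548008, minus strand) in blood stem cells; both were reported to methylate histone H3. Prdm16 was at 0.283 and 0.301 RPKM in MUT heads, 0.39 and 0.525 RPKM in HET heads and 0.53 and 0.596 RPKM in WT heads, from 92 and 76, 104 and 135, and 188 and 180 reads. All MUT values lay below all HET values and those below all WT values. It fell to 52.1% of the WT level in MUT (log2 fold change -0.94, SE 0.22, 95% interval -1.48 to -0.40, adjusted p = 0.0259), while HET against WT, -0.30 (SE 0.22, 95% interval -0.83 to 0.24), did not pass (adjusted p = 0.455). The call ended without either MUT or either WT library, at adjusted p = 0.0696 to 0.121, with values between -1.01 and -0.87. It also ended with limma on log2(RPKM + 0.1), at adjusted p = 0.0695, and in the authors' deposited table Prdm16 is at -0.95 with a false discovery rate of 0.136. Mecom was at 1.77 and 1.66 RPKM in MUT, 1.85 and 1.97 RPKM in HET and 2.03 and 1.52 RPKM in WT heads. Its MUT and HET libraries lay within the spread of the 2 WT libraries, and its log2 fold change in MUT against WT was -0.04 (SE 0.18, 95% interval -0.48 to 0.39, adjusted p = 0.875).

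Neural marker genes were lower in MUT heads, as Prdm16 was. Over all genes tested, 13.6% passed as lower and 17.1% as higher in MUT against WT. Of the 12 neural progenitor genes 10 fell in MUT heads, with sums of 701 and 771 CPM in MUT, 995 and 1148 CPM in HET and 1336 and 1296 CPM in WT heads. Of the 12 forebrain genes 9 fell, at 102 and 62 CPM in MUT, 218 and 279 CPM in HET and 417 and 291 CPM in WT heads. Of the 10 neural crest genes 8 fell, at 212 and 169 CPM in MUT, 261 and 414 CPM in HET and 595 and 635 CPM in WT heads. Of the 11 head mesenchyme genes 6 rose and 0 fell, at 475 and 537 CPM in MUT, 435 and 431 CPM in HET and 329 and 365 CPM in WT heads. No marker of these 4 lists was at 0 in any genotype. Scaling to the neural progenitor list shifts the median over all genes by 0.97 (log2) in MUT against WT, and on that scale Prdm16 differed by 0.05 (adjusted p = 0.882) in MUT against WT. The part of these tissues in the Prdm16 result was not tested.

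Prdm4 (chromosome 10, 85891966 to 85917142, minus strand), a partner of the arginine methyltransferase encoded by Prmt5, had the highest mean RPKM of the 9 members. It was at 20.6 and 19.9 RPKM in MUT heads, 21.2 and 22.1 RPKM in HET heads and 23.6 and 23 RPKM in WT heads. The libraries lay in genotype order with no overlap, within a range of 19.9 to 23.6 RPKM. Prdm4 fell to 87.4% of the WT level in MUT (log2 fold change -0.19, SE 0.05, 95% interval -0.32 to -0.07, adjusted p = 0.039), and HET against WT, at -0.10 (SE 0.05), did not pass (adjusted p = 0.295). The call ended in 5 of the 6 fits that leave out a library (adjusted p = 0.0541 to 0.213), with only the MUT and WT libraries in the fit (adjusted p = 0.0529) and in the likelihood ratio test (adjusted p = 0.0947). Scaled to neural progenitor genes Prdm4 was at 0.80 (adjusted p = 0.000907) in MUT against WT, below the median of 0.97 over all genes. In the authors' deposited table Prdm4 is at -0.20 with a false discovery rate of 0.222.

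Prdm1 (chromosome 10, 44437177 to 44528501, minus strand) encodes Blimp1, a repressor needed for the founding of germ cells and active in endoderm and axial mesendoderm of the early embryo. It was at 5.43 and 6 RPKM in MUT heads, 6.59 and 5.21 RPKM in HET heads and 4.43 and 3.32 RPKM in WT heads. All MUT and HET libraries lay above both WT libraries, and MUT and HET overlapped. The log2 fold change was 0.57 (SE 0.17, 95% interval 0.14 to 1.00) in MUT against WT, with an adjusted p of 0.0561, and 0.61 (SE 0.17, 95% interval 0.18 to 1.04) in HET against WT, with an adjusted p of 0.109. Neither passed in edgeR's quasi-likelihood test with the usual scaling. Both passed in DESeq2 (adjusted p = 0.0182 in MUT against WT and 0.0274 in HET against WT) and in the likelihood ratio test (adjusted p = 0.0276 and 0.0397), and the MUT value passed without WT replicate 1 (0.80, adjusted p = 0.0383). It was 0.36 without WT replicate 2 (adjusted p = 0.189), and over the 6 fits that leave out a library the adjusted p ran from 0.0383 to 0.201. In the authors' deposited table, where 14.3% of 24062 genes have a false discovery rate under 0.05, the members under it are Prdm6 and Prdm1, with Prdm1 at a log2 fold change of 0.56 and a rate of 0.0374.

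Tissues in which Prdm1 is known to act were compared by the same lists, beside 17.1% of all genes tested that passed as higher and 13.6% as lower in MUT against WT. Of 11 axial mesendoderm genes 4 rose and 0 fell in MUT, at 114 and 161 CPM in MUT, 109.8 and 103 CPM in HET and 85.7 and 92.2 CPM in WT heads. Of 11 foregut endoderm genes 7 rose and 1 fell, at 439 and 468 CPM in MUT, 365 and 312 CPM in HET and 174 and 183 CPM in WT heads. Of 10 surface ectoderm genes 3 rose and 2 fell, at 1333 and 1189 CPM in MUT, 973 and 767 CPM in HET and 578 and 586 CPM in WT heads. Those that rose were Krt18 (1.88), Krt8 (1.85) and Cdh1 (1.10), and those that fell were Tfap2a (-1.04) and Trp63 (-3.31). Krt8, at 537 and 400 CPM, and Krt18, at 456 and 379 CPM, made up most of the MUT sum. Of 10 germ cell genes 8 were tested; Pou5f1 rose by 3.55 (SE 0.78), the receptor gene Kit changed by -0.62 (SE 0.17, adjusted p = 0.0377), and the summed level was 134 and 205 CPM in MUT, 161 and 145 CPM in HET and 159 and 166 CPM in WT heads. Of 13 trophoblast and decidua genes 11 were tested; 0 rose and 1 fell, and the sum was 17.5 and 125 CPM in MUT, 9.48 and 16.3 CPM in HET and 8.9 and 373 CPM in WT heads, highest in WT replicate 2, with Tpbpa at 0 in HET. None of the axial mesendoderm, foregut endoderm, surface ectoderm or germ cell markers was at 0 in any genotype. Prdm1 overlapped between MUT and HET heads. The visceral and foregut endoderm sums were higher in both MUT than in both HET libraries, as were 27.6% of all genes tested. The part of these tissues in the Prdm1 values was not tested.

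Prdm14 (chromosome 1, 13113457 to 13127163, minus strand), which is required for germ cells and supports naive pluripotency in mouse stem cells, had 2 reads in WT replicate 1 and 0 reads in each of the other 5 libraries. A count of 0 allows up to 3 reads, equal to 0.0769 and 0.102 CPM in MUT, 0.096 and 0.101 CPM in HET and 0.0866 CPM in the WT library at 0, for counting error only. A difference between genotypes was not detectable at this depth.

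Prdm2 (chromosome 4, 143107391 to 143212995, minus strand), known as a histone methyltransferase and tumour suppressor, had close RPKM values in all libraries. It was at 14.5 and 14.8 RPKM in MUT, 14.4 and 14.8 RPKM in HET and 15.2 and 14.7 RPKM in WT heads. The 95% interval of MUT against WT spans 91.7% to 106% of the WT level (log2 fold change -0.02, SE 0.04, adjusted p = 0.758). On the neural progenitor scale Prdm2 was at 0.97 in MUT against WT (adjusted p = 0.000278) and 0.67 in MUT against HET (adjusted p = 0.00702). The medians over all genes on that scale were 0.97 and 0.66, so Prdm2 moved as the typical gene did. Prdm10 (chromosome 9, 31280538 to 31381723, plus strand), a zinc finger factor essential for early mouse development, was at 5.58 and 4.82 RPKM in MUT, 5.43 and 5.73 RPKM in HET and 6.08 and 5.92 RPKM in WT heads. All its MUT and HET libraries lay below both WT libraries, but the log2 fold change of -0.20 (SE 0.10, 95% interval -0.45 to 0.05, adjusted p = 0.194) did not pass. On the neural progenitor scale Prdm10 was at 0.80 (adjusted p = 0.00228) and Mecom at 0.95 (adjusted p = 0.00248) in MUT against WT. Neither exceeded the median of 0.97 over all genes.

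By mean RPKM over all libraries the members ranked Prdm4, Prdm2, Prdm6, Prdm10, Prdm1, Prdm15, Mecom, Prdm16 and Prdm14. Neighbours in this order overlapped between their libraries for Prdm2 and Prdm6 in MUT heads, and for Prdm10 and Prdm1 in MUT and HET heads. In WT heads Prdm1, at a mean of 3.87 RPKM, lay below Prdm15, at 5.35 RPKM, without overlap, and Prdm6 lay below Prdm10, Prdm1, Prdm15 and Mecom. Prdm6 was the member whose place depended most on genotype, at 17.3 RPKM next to Prdm2 in MUT heads and at 0.879 RPKM between Mecom and Prdm16 in WT heads.

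Further PRDM genes (Prdm8, Prdm9, Prdm11, Prdm12 and Prdm13) and the FOG genes Zfpm1 and Zfpm2, which encode zinc finger partners of GATA factors and are counted with the family here, formed a list of 7. Of these 2 rose and 1 fell in MUT against WT, where 17.1% of all genes passed as higher and 13.6% as lower. In HET against WT 2 rose and 0 fell, where 6.03% passed as higher and 0.533% as lower. Zfpm1, needed for red cells and platelets, was at 42.1 and 34.1 RPKM in MUT, 27.7 and 22.3 RPKM in HET and 7.35 and 6.75 RPKM in WT heads. Its 3 genotypes did not overlap, and it rose 5.44-fold in MUT (log2 fold change 2.44, SE 0.15, adjusted p = 0.000613) and 3.55-fold in HET (1.83, SE 0.15, adjusted p = 0.00329). Zfpm2, needed for heart morphogenesis, was at 1.59 and 1.19 RPKM in MUT, 1.04 and 1.36 RPKM in HET and 0.464 and 0.464 RPKM in WT heads, and rose by 1.59 (SE 0.23, adjusted p = 0.00659) in MUT and 1.37 (SE 0.23, adjusted p = 0.0291) in HET. The HET call of Zfpm2 ended without either HET or either WT library (adjusted p = 0.0678 to 0.0933). Of the 10 erythroid genes 9 were tested, 0 rose and 1 fell in MUT, at 50.2 and 34 CPM in MUT, 31.1 and 263 CPM in HET and 188 and 274 CPM in WT heads, with Hba-a1 at 0 in all genotypes. The part of erythroid and heart cells in the FOG gene results was not tested.

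Prdm8, a neural repressor gene, had 7 and 8 reads in MUT, 9 and 7 in HET and 24 and 39 in WT heads and changed by -1.87 (SE 0.51, adjusted p = 0.0393) in MUT; the call ended in all 6 fits that leave out a library (adjusted p = 0.0511 to 0.196). The GENCODE antisense gene A730035I17Rik covers 29.1% of the exon bases of Prdm8 and is not among the counted symbols, so reads of both cannot be told apart if strand was not used. Prdm9, which marks sites of meiotic recombination, differed by -0.70 on the log2 scale in MUT against WT (SE 0.25, adjusted p = 0.0824), Prdm11 by -0.41 (SE 0.38, adjusted p = 0.447) and Prdm12, a gene of sensory neuron development, by -0.84 (SE 0.37, adjusted p = 0.137), and none of the 3 passed. Prdm13, a neural gene of the dorsal spinal cord and retina, had 2 and 0 reads in MUT, 3 and 63 in HET and 101 and 0 in WT heads, so 1 HET and 1 WT library held nearly all of its reads, and MUT against WT did not pass (adjusted p = 0.184).

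**Figure D4:**
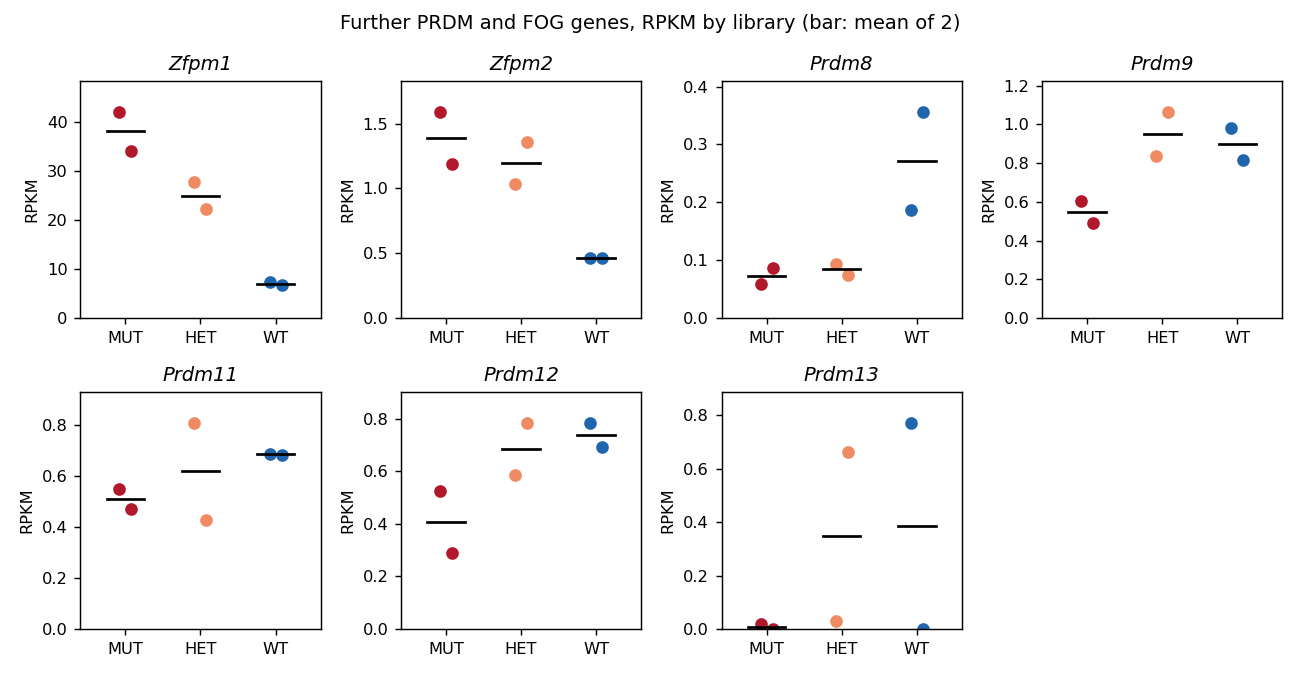
RPKM of 5 further PRDM genes and both FOG genes in each library, with MUT, HET and WT heads from left to right and a bar at the mean of 2 libraries; each panel has its own scale. Zfpm1 stands at 42.1 and 34.1 RPKM in MUT, 27.7 and 22.3 RPKM in HET and 7.35 and 6.75 RPKM in WT heads, and Prdm13 is near 0 in 4 of the 6 libraries.

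Genes for chromatin partners through which PRDM proteins act formed a list of 19, all tested. In MUT against WT 2 rose and 5 fell, where 17.1% of all genes passed as higher and 13.6% as lower, and the median change was -0.07 in the list and -0.02 over all genes. Ezh2, the methyltransferase of Polycomb complex 2, was at 186 and 186 CPM in MUT, 206 and 211 CPM in HET and 242 and 239.8 CPM in WT heads (log2 fold change -0.37, SE 0.04, adjusted p = 0.00284). Suv39h2, a histone H3 methyltransferase gene, was at -0.53 (SE 0.08, adjusted p = 0.00651) and the deacetylase gene Hdac2 at -0.21 (SE 0.04, adjusted p = 0.0175). The corepressor gene Cbfa2t3 rose by 1.77 (SE 0.21, adjusted p = 0.00364), at 23.4 and 16.6 CPM in MUT, 13.6 and 17.1 CPM in HET and 6.15 and 5.57 CPM in WT heads. Of the 19, 1 rose and 1 fell in HET against WT, where 6.03% of all genes passed as higher and 0.533% as lower.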

How the data were processed

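PolyA-selected RNA of 6 embryo heads, 2 for each genotype, was sequenced. The submitters' processing notes name TopHat2 2.0.11, HTSeq 0.6.1p2, edgeR 3.8.6 and the build mm10, among other tools. For the annotation and the strand option of the counting, the sources used here give no entry. The authors deposited raw counts per gene symbol with 5 summary lines, which were left out (8.93% to 10.5% of all read pairs in no feature, 1.04% to 1.08% ambiguous, 12.7% to 14.5% not unique). Per the file headers, a table deposited by the authors adds RPKM for each library, and for mutant against wild type a log2 fold change, a score (LR), p-values and false discovery rates. At 7647 genes with over 500 reads in every library, the deposited counts and RPKM gave 1 whole gene length within 0.05 bases for 100%, with library sizes 0.968 to 1.02 times the reads in genes.

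Counts were taken by the title in the file name, as the rule for the members says. They were fitted with edgeR 4.0.16 in R 4.3.3 (filterByExpr, TMM, quasi-likelihood F-test, 6 libraries in 1 fit, 3 residual degrees of freedom, adjusted p under 0.05). The fit was tested on simulated counts. The size of a log2 fold change over the root of its F gave its standard error. CPM of single genes uses TMM sizes and list sums use reads in genes. Alternatives used DESeq2 1.42.0 and limma 3.58.1. Positions are from GENCODE M21 (GRCm38, the assembly of mm10). The members, 18 lists and rules were chosen with earlier results of these data known. Named genes are the members, 7 further PRDM and FOG genes (1 other gene is not reported here), up to 4 list genes of smallest p, Otx2 as the gene in the series title, and the 3 nearest profiles (mean of at least 1 CPM) of Prdm15 and of members that passed.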

Additional observations from a re-analysis of the deposited data

How the results depend on the processing

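No paired analysis was possible because the labels carry no replicate numbers, and those used here follow the accession order. With the size factors of DESeq2 in edgeR, every value of the members and of the further PRDM and FOG genes kept its direction and its side of the threshold. With the 2 files as attached, edgeR passed 0 members and 0 genes in each comparison (unadjusted p under 0.05 at 318, 48 and 422 genes in MUT against WT, HET against WT and MUT against HET; other tools were not run on these files), and some log2 fold changes changed sign. These were Prdm15 at 0.066, Prdm1 at -0.084, Prdm6 at -0.64, Prdm16 at 0.14, Prdm8 at 0.85, Zfpm1 at -0.28 and Zfpm2 at -0.32 in MUT against WT. These were Prdm6 at -0.41, Prdm16 at 0.17 and Prdm12 at 0.066 in HET against WT. These were Prdm15 at 0.10, Prdm6 at -0.24, Prdm8 at 1.39, Zfpm1 at -0.29 and Zfpm2 at -0.54 in MUT against HET. Scaled to the neural progenitor list, 7, 2 and 6 members and 12316, 1857 and 10342 genes passed in MUT against WT, HET against WT and MUT against HET, and the median over all genes shifted by 0.97, 0.32 and 0.66 (log2). Some log2 fold changes then had the other sign. These were Prdm15 at 0.77, Prdm2 at 0.97, Prdm4 at 0.80, Prdm10 at 0.80, Prdm16 at 0.045, Mecom at 0.95, Prdm9 at 0.30, Prdm11 at 0.58 and Prdm12 at 0.17 in MUT against WT. These were Prdm15 at 0.15, Prdm2 at 0.30, Prdm4 at 0.22, Prdm10 at 0.22, Prdm16 at 0.016, Prdm11 at 0.22, Prdm12 at 0.21 and Prdm13 at 0.092 in HET against WT. These were Prdm15 at 0.62, Prdm1 at 0.60, Prdm4 at 0.57, Prdm10 at 0.57, Prdm16 at 0.029, Mecom at 0.51, Prdm8 at 0.43 and Prdm11 at 0.37 in MUT against HET. Prdm13 in HET against WT was 1.18 with limma-voom and 0.10 with limma on log2(RPKM + 0.1), with or without the filter. In HET against WT DESeq2 passed 2 members and 1907 genes, and the likelihood ratio test 2 members and 1579 genes, in place of 1 and 997. In MUT against HET DESeq2 passed 1 member and 1328 genes, the likelihood ratio test 801 genes, edgeR without the filter 182, edgeR on the 4 libraries of both genotypes 106 and limma on unfiltered log2(RPKM + 0.1) 43, in place of 0 members and 66 genes. Leaving out 1 library at a time, 1 to 3 members and 1997 to 4265 genes passed in MUT against WT, 1 member and 313 to 748 genes in HET against WT, and 0 members and 11 to 81 genes in MUT against HET. A sign changed within these ranges for Mecom (-0.25 to 0.20), Prdm13 (-8.37 to 3.13) and Prdm2 (-0.058 to 0.020) in MUT against WT. A sign changed within these ranges for Mecom (-0.090 to 0.34), Prdm11 (-0.67 to 0.24), Prdm12 (-0.33 to 0.096), Prdm13 (-3.62 to 8.16) and Prdm9 (-0.096 to 0.25) in HET against WT. A sign changed within these ranges for Prdm1 (-0.21 to 0.13), Prdm11 (-0.66 to 0.25), Prdm15 (-0.19 to 0.092), Prdm2 (-0.019 to 0.022), Prdm8 (-0.50 to 0.055) and Zfpm2 (-0.0063 to 0.42) in MUT against HET. The reads limit Prdm14, Prdm8 and Prdm13 most, and 2 libraries a genotype limit all tests. The cause of these changes was not tested.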

Other observations

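The order of the members by level depends on the gene length behind the RPKM. The length that the deposited RPKM implies is 3408 bases for Prdm10, 4429 for Mecom and 6346 for Prdm15, while the union of their GENCODE M21 exons holds 9259, 12427 and 11349 bases; for Prdm2 the implied length, 9410 bases, is the longer one, against 7420. With the exon unions in place of the implied lengths, Prdm2 ranked above Prdm4, at a mean of 18.7 against 17.3 on the RPKM scale, and Prdm10 moved to rank 6 from rank 4, at 2.06 in place of 5.59. Prdm2 was then at 18.4 and 18.8 in MUT heads, where Prdm4 was at 16.4 and 15.9, and at 19.3 and 18.6 in WT heads, where Prdm4 was at 18.8 and 18.3. Fold changes between genotypes do not use the length and stayed as given.

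Exon bases shared with another GENCODE gene made up 1.39% of Prdm10, 1.17% of Prdm16 and 0.652% of Mecom, in each case with a gene on the opposite strand whose symbol is not among those counted. The exons of the other 6 members shared 0 bases with another gene.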
